A study of Mus musculus with 236 samples.

Results

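A set of 10 genes that drive or restrain entry into the cell cycle was followed as mouse embryonic stem cells left the naive state: the D-type cyclins Ccnd1, Ccnd2 and Ccnd3, their kinase Cdk6, the inhibitor Cdkn1b, the pocket protein gene Rb1, the E-type cyclins Ccne1 and Ccne2, and the later cyclins Ccna2 and Ccnb1. They were chosen by name, as 10 of the 39300 gene names in the table of unique molecular identifiers (UMIs), and all 10 were found. The cells came from 1 female line, made from blastocysts of a C57BL/6J mother and a CAST/EiJ father and grown in serum with 2i (inhibitors of GSK3 and MEK) and LIF. Cells were taken at day 2.5 and at day 0.5 after 2i and LIF were withdrawn and the cells replated on fibronectin, so the cells of both days had left the inhibitors. Each was read with HiRES, which records chromatin contacts and RNA of the same cell. No separate cultures are named in the labels and a day is 1 sample: no p-value was made, and intervals, all 95%, cover counting error only.

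A cyclin binds a cyclin-dependent kinase and switches it on. D-type cyclins with CDK4 or CDK6 start the phosphorylation of the RB protein in G1, which releases E2F factors; cyclin E with CDK2 carries this on into S phase, cyclin A acts from S phase onwards, and cyclin B with CDK1 drives mitosis. The p27 protein, encoded by Cdkn1b, holds cyclin E and CDK2 in check. Naive mouse embryonic stem cells are known for a short G1 phase, and G1 becomes longer as they differentiate.

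RefSeq promoter sequences (build GRCm38.p6) were given for 5 of the 10 genes: Ccnb1, Ccnd3, Ccne1, Cdk6 and Cdkn1b. The 250 bases upstream of the start are shown for Ccne1 and Ccnb1, because their levels ran in opposite directions between G1 and mid S phase at day 2.5, and for the start sites of Ccnd3, which was lower at day 2.5 in each of the larger classes. Capitals mark the GC box GGGCGG and the CCAAT box, on either strand. Ccne1 is at chr7:38107491-38107740 on the minus strand, Ccnb1 at chr13:100786487-100786736 on the minus strand, and Ccnd3 at chr17:47504801-47505050 and chr17:47593217-47593466 on the plus strand.
Ccne1: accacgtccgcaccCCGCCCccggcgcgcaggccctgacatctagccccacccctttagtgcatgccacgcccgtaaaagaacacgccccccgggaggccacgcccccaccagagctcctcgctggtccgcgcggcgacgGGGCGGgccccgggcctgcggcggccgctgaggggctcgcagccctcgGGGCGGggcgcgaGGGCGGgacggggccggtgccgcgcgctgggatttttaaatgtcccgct
Ccnb1: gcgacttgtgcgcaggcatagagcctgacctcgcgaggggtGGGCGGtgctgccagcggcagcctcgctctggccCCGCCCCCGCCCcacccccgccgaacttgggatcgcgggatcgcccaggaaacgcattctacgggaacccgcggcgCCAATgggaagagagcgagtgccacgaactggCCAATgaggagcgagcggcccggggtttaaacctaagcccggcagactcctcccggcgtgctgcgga
Ccnd3, first start: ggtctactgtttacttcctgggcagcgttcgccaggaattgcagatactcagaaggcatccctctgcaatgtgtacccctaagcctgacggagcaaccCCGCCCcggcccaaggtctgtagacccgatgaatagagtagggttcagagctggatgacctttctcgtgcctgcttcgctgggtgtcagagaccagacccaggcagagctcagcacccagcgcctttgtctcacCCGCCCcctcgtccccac
Ccnd3, second start: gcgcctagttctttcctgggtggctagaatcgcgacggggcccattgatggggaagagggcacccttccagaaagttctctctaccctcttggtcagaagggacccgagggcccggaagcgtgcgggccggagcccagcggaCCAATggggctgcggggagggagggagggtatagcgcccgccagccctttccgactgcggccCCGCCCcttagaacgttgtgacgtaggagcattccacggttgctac
The Ccne1 window held 4 GC boxes and no CCAAT box. The Ccnb1 window held 2 CCAAT boxes and 3 GC boxes, 2 of which lie end to end without overlap. The first Ccnd3 window held 2 GC boxes, and the second 1 GC box and 1 CCAAT box. Over all 32851 promoter windows, 32.7% held a GC box and 33.9% a CCAAT box. The E2F forms TTTGGCGC, TTTCCCGC, TTTGCCGC and TTTCGCGC were found in 1.86% of all windows and the CHR element TTTGAA in 15.99%, and neither was in the windows of the 5 genes. A match describes the letters and is not a binding site.

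RNA of 406 cells was matched to the libraries, nearly the same number from each day, and no cell name was shared between libraries. The median cell held 15796 UMIs at day 2.5 (range 529 to 29275), against 13670 UMIs (range 501 to 23213) at day 0.5. UMIs on exons were 24.2% of gene UMIs at day 2.5 and 26.3% at day 0.5, so most gene UMIs lay outside exons. A label of unstated meaning in the cell table splits the cells into 3 batches. Day 2.5 lay in batches 2 and 3, and day 0.5 in batches 1 and 2. All 7 pluripotent stem cell markers were detected on both days. Their summed level was 377 CPM (UMIs per 1000000 UMIs of the same cells) at day 2.5 (batches, 364 to 387) and 1178 CPM at day 0.5 (batches, 1161 to 1192). Most of this fall lay in Esrrb (12.4 CPM at day 2.5, 338.9 at day 0.5) and Zfp42 (18.8 at day 2.5, 333.4 at day 0.5). Sall4 (126.8 CPM at day 2.5, 133.5 at day 0.5) and Tdgf1 (175.5 at day 2.5, 218.2 at day 0.5) changed less. Pou5f1, Sox2 and Nanog were also lower at day 2.5. The 7 fibroblast markers summed to 8.47 CPM at day 2.5 and 10.2 CPM at day 0.5, the 6 primitive endoderm markers to 17.9 CPM at day 2.5 and 16.8 CPM at day 0.5, with Sox7 and Foxa2 at 0, and the 6 trophectoderm markers to 6.91 CPM at day 2.5 and 6.78 CPM at day 0.5, with Hand1 at 0. The part of these marker levels in the results was not tested.

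The authors' cell cycle classes place each cell in G0, G1, early, mid or late S, G2 or M. G1 held 82 cells at day 2.5 (40.0%, Clopper-Pearson interval 33.2 to 47.1%) and 41 cells at day 0.5 (20.4%, 15.1 to 26.6%), a difference of 19.6 percentage points with a Newcombe interval of 10.7 to 28.1. By batch the share was 37.7% in batch 2 and 43.4% in batch 3 at day 2.5, against 21.3% in batch 1 and 19.8% in batch 2 at day 0.5. Both day 2.5 batches lay above both day 0.5 batches. Mid S held 62 cells (30.2%) at day 2.5 and 87 (43.3%) at day 0.5. Early S held 15 (7.32%) at day 2.5 and 32 (15.9%) at day 0.5. The mid S difference was -13.04 points (Newcombe interval -22.11 to -3.66) over all cells. Within batch 2, the only batch with both days, it was -4.41 points (-16.22 to 7.56), an interval that spans both signs. The early S difference was -8.60 points (-14.96 to -2.37) over all cells and -12.45 points (-20.98 to -4.07) within batch 2. The remaining classes were small: at day 2.5 late S had 17 cells, G2 18, M 7 and G0 4, and at day 0.5 late S had 20, G2 6, M 15 and G0 none. The sources used here do not say how the classes were made, so whether RNA of the 10 genes entered them is not known. In the M class the median cell had 4819 UMIs at day 2.5 and 5818 at day 0.5, the lowest of the classes. The authors' S phase score was also highest there, with medians of 0.44 at day 2.5 and 0.41 at day 0.5, so RNA levels of the M class are given with that limit.

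**Figure D1:**
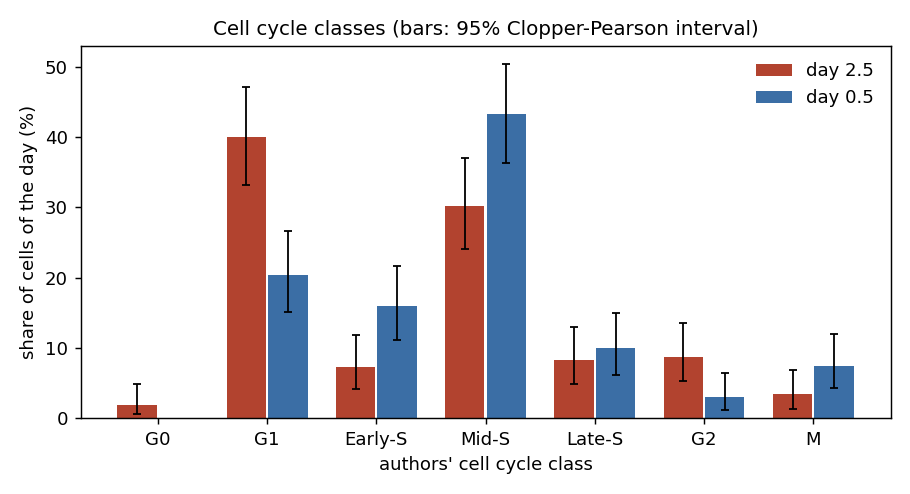
Share of cells (%) in each of the authors' cell cycle classes at day 2.5 (red) and day 0.5 (blue), with Clopper-Pearson intervals. G1 held 40.0% of cells at day 2.5 and 20.4% at day 0.5, while mid S held 30.2% at day 2.5 and 43.3% at day 0.5. Within batch 2 the mid S difference was smaller, at -4.41 points (Newcombe interval -16.22 to 7.56).

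Between the days, 4 of the 10 genes were lower at day 2.5 (Ccnd1, Ccnd2, Ccnd3 and Ccna2), 2 were higher (Rb1 and Cdkn1b) and 4 were neither. A gene was called at a ratio of summed CPM of 1.5 or its inverse and at least 20 UMIs over both days. By the same rule 25.6% of 13778 genes were lower, 21.4% higher and 47% either, and 6 of the 10 members were called. The median log2((CPM day 2.5 + 5)/(CPM day 0.5 + 5)) was -0.38 over the 10 genes and -0.06 over all genes. For 8 of the 10, both day 2.5 batch levels lay beyond both day 0.5 batch levels, 5 lower and 3 higher, as was the case for 67.8% of all genes (37.1% lower, 30.7% higher). At a ratio of 2, Rb1 was higher and Ccnd1 and Ccnd3 lower, against 13.1% of all genes higher and 13.9% lower (27.1% either). With a minimum of 100 UMIs, the same 3 genes were called, against 19.9% of genes higher and 20.6% lower (40.4% either). The levels by batch are plotted for each gene.

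**Figure D2:**
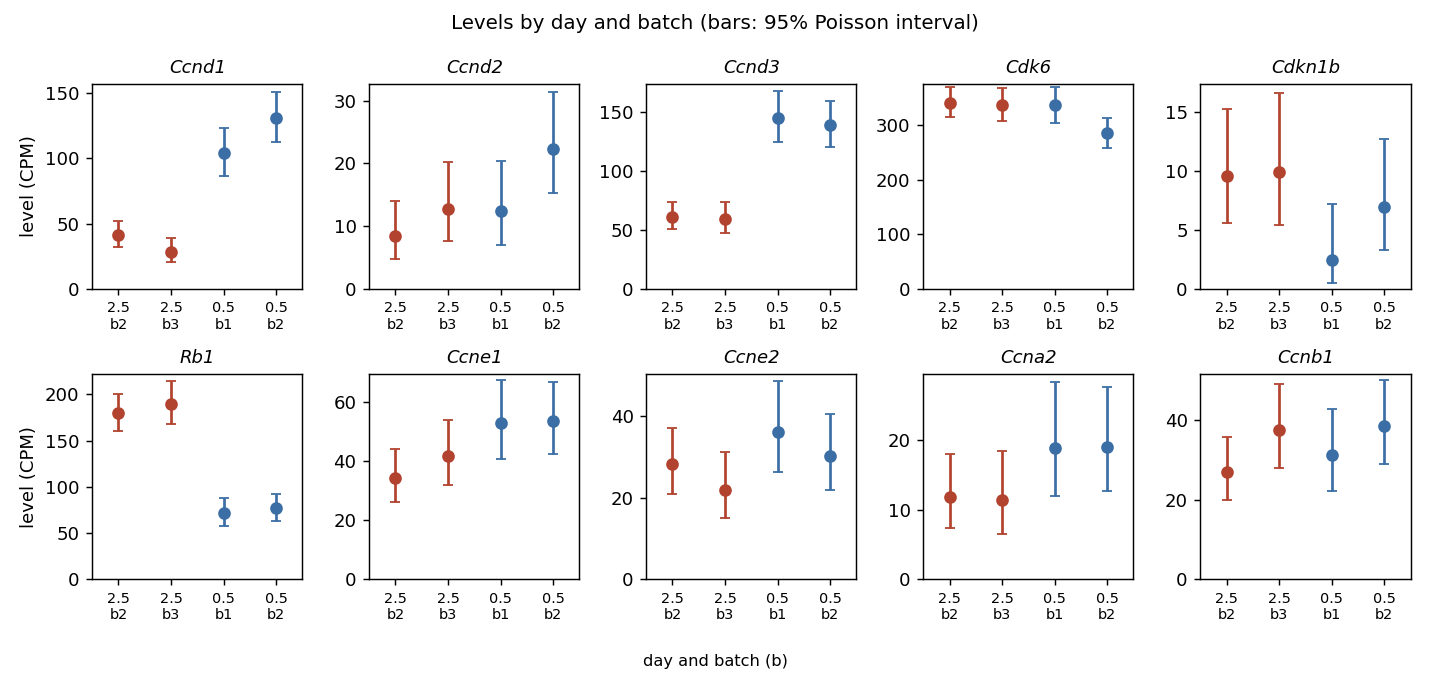
Level (CPM of summed UMIs, with exact Poisson intervals) of each gene in the 2 batches (b) of day 2.5 (red) and the 2 of day 0.5 (blue). Ccnd1 and Ccnd3 lie lower and Rb1 higher in both day 2.5 batches, and Ccnd2 and Ccnb1 overlap between the days.

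Ccnd1 encodes cyclin D1, which links growth factor signals to the RB pathway. It stood at 41.1 CPM in batch 2 and 28.3 CPM in batch 3 at day 2.5, against 103.7 CPM in batch 1 and 130.5 CPM in batch 2 at day 0.5. The highest day 2.5 batch was below the lowest day 0.5 batch, and its change was the largest fall among the 10 genes. Over the days it was at 35.5 CPM at day 2.5 and 118.2 CPM at day 0.5, a ratio of 0.300 (0.240 to 0.373). A UMI was seen in 31.7% of cells at day 2.5 and in 70.6% at day 0.5. After thinning every cell to 5000 UMIs, and dropping 7 shallower cells per day, these shares were 14.6% at day 2.5 and 40.2% at day 0.5.

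The fall in Ccnd1 was uneven across the cycle. At day 2.5 it was at 50.1 CPM in G1, 8.08 in early S, 18.6 in mid S, 35.1 in late S and 39.9 in G2. At day 0.5 the levels were 104.7 CPM in G1, 95.5 in early S, 123.6 in mid S and 139.1 in late S. Day 0.5 was thus nearly flat from G1 to mid S, and day 2.5 had a trough in S phase. The ratio of G1 to mid S was 2.69 (1.59 to 4.73) at day 2.5, against 0.847 (0.606 to 1.17) at day 0.5. G1 lay above mid S in both day 2.5 batches (55.0 against 15.9 CPM in batch 2, 44.9 against 23.5 in batch 3), while at day 0.5 the order differed by batch (109.1 against 89.7 CPM in batch 1, 101.5 against 165.5 in batch 2). The day ratio was 0.478 (0.323 to 0.710) in G1, 0.151 (0.0894 to 0.241) in mid S and 0.0846 (0.00991 to 0.326) in early S, where it rests on 2 UMIs at day 2.5. The difference between these ratios was not tested. G1 cells supplied 50.4% of Ccnd1 UMIs and 35.7% of all UMIs at day 2.5, and at day 0.5 they supplied 16.6% of Ccnd1 UMIs and 18.7% of all UMIs. In the M class of day 2.5 the level was 213.7 CPM, from 9 UMIs in 3 of 7 cells. Weighting the 6 classes equally, M included, gave a day ratio of 0.496. With 4 pooled classes weighted equally it was 0.273, and with class shares held at those of day 0.5 it was 0.342.

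Ccnd3 encodes cyclin D3, another partner of CDK4 and CDK6. It was at 61.2 CPM in batch 2 and 59.5 CPM in batch 3 at day 2.5, against 144.7 CPM in batch 1 and 138.7 CPM in batch 2 at day 0.5. The groups did not overlap, and the ratio over the days was 0.428 (0.357 to 0.510). At day 2.5 it had 64.1 CPM in G1, 64.7 in early S, 53.3 in mid S, 75.4 in late S and 61.2 in G2, and at day 0.5 it had 137.9 CPM in G1, 153.6 in early S, 143.5 in mid S and 133.98 in late S. The day 0.5 batches ran in opposite directions, with 104.3 CPM in G1 against 169.8 in mid S in batch 1, and 162.8 in G1 against 110.96 in mid S in batch 2. The day ratio lay between 0.372 in mid S and 0.495 in late S, G2 and M pooled. Over the alternatives, some of which used only part of the cells, the ratio lay between 0.383 and 0.474. Of the values of Ccnd3 above 0, 7.66% were fractions, and Bysl, which overlaps it on the genome, had 92 UMIs.

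Ccnd2, the gene for cyclin D2, was sparse, with 33 UMIs at day 2.5 and 47 at day 0.5. Its levels were 8.45 CPM in batch 2 and 12.8 in batch 3 at day 2.5, against 12.3 in batch 1 and 22.2 in batch 2 at day 0.5. The batches overlapped, and the ratio of 0.585 (0.363 to 0.933) depended on few cells. One day 0.5 cell held 10 of the 47 UMIs, and without that cell the ratio was 0.739, which is neither higher nor lower. The call was also lost in letter A cells, marked so in the cell names (0.741), and with 5 CPM added to each level (0.677), and the direction turned after thinning (1.18) and for batch 3 against batch 1 (1.03). At day 2.5, 22 of the 33 UMIs (66.7%, 48.2 to 82%) came from G1 cells, and 5 from 2 of the 4 G0 cells. There the level was 19.3 CPM in G1 and 1.86 in mid S, where a count of 2 gives a ratio of 10.4 with an interval of 2.55 to 91.1. At day 0.5 it was 16.1 CPM in G1, 15.4 in mid S and 52.6 in late S, the last including the cell with 10 UMIs. Within G1 the day ratio was 1.20 (0.514 to 3.12), and its interval includes 1.

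Cdk6 is the catalytic partner of the D-type cyclins and, summed over a long gene, the member with the most UMIs. It was at 342 CPM in batch 2 and 338 in batch 3 at day 2.5, against 337 in batch 1 and 285 in batch 2 at day 0.5. The day 0.5 batches differed more from each other than batch 1 did from either day 2.5 batch. The ratio over the days was 1.10 (1.00 to 1.21), neither higher nor lower. In G1 cells it was at 343 CPM at day 2.5 and 244 CPM at day 0.5, a ratio of 1.41 (1.14 to 1.74), and in early S at 323 CPM at day 2.5 and 409 CPM at day 0.5, a ratio of 0.790 (0.598 to 1.04). At day 0.5 G1 had less Cdk6 than mid S (ratio 0.756, 0.611 to 0.929), and at day 2.5 the ratio was 0.95 (0.824 to 1.10). The M class had 71.2 CPM at day 2.5 from 3 UMIs and 90.5 CPM at day 0.5 from 10 UMIs.

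Cdkn1b had 31 UMIs at day 2.5 and 13 at day 0.5. The p27 gene stood at 9.58 CPM in batch 2 and 9.92 in batch 3 at day 2.5, against 2.47 in batch 1 and 6.94 in batch 2 at day 0.5. Both day 2.5 batches were higher, with wide intervals that overlap those of day 0.5. The ratio over the days was 1.99 (1.01 to 4.14), and within batch 2 it was 1.38 and with 5 CPM added to each level 1.49, both under the threshold. A UMI was seen in 26 cells (12.7%) at day 2.5 and in 12 cells (5.97%) at day 0.5, or, after thinning, in 7.58% at day 2.5 and 2.06% at day 0.5. G1 cells held 12 of the UMIs at day 2.5, in 12 different cells, and 1 at day 0.5. Late S cells held 10 UMIs in 6 cells at day 2.5 and 1 UMI at day 0.5.

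Rb1, whose protein holds E2F factors inactive until it is phosphorylated, had the largest rise among the 10 genes. It was at 180 CPM in batch 2 and 190 in batch 3 at day 2.5, against 71.6 in batch 1 and 76.7 in batch 2 at day 0.5. The groups lay far apart relative to the spread between batches of a day. The ratio over the days was 2.48 (2.11 to 2.93), and between 1.69 and 2.65 over the alternatives. A UMI was seen in 71.2% of cells at day 2.5 and in 46.8% at day 0.5.

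Across classes, Rb1 at day 2.5 was at 177.5 CPM in G1, 159.7 in early S, 214.01 in mid S, 175.6 in late S and 172.98 in G2. At day 0.5 it was at 104.7 CPM in G1, 114.6 in early S, 58.9 in mid S and 27.8 in late S. The level was thus nearly even from G1 to G2 at day 2.5 and lower in mid and late S than in G1 at day 0.5. The late S value of day 0.5 rests on 9 UMIs in 5 of 20 cells, with an interval of 12.7 to 52.8 CPM. Within batch 2 it was 10.1 CPM. The day ratio was 1.69 (1.24 to 2.35) in G1, 1.39 (0.891 to 2.17) in early S, 3.63 (2.78 to 4.80) in mid S and 3.36 (2.16 to 5.42) in late S, G2 and M pooled. The ratio of G1 to mid S was 0.829 (0.683 to 1.01) at day 2.5, against 1.78 (1.22 to 2.57) at day 0.5. With class shares held at those of day 0.5 the day ratio was 2.32. Lpar6, which lies within Rb1, had 59 UMIs, and the sources used here do not say whether counting used strand.

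**Figure D3:**
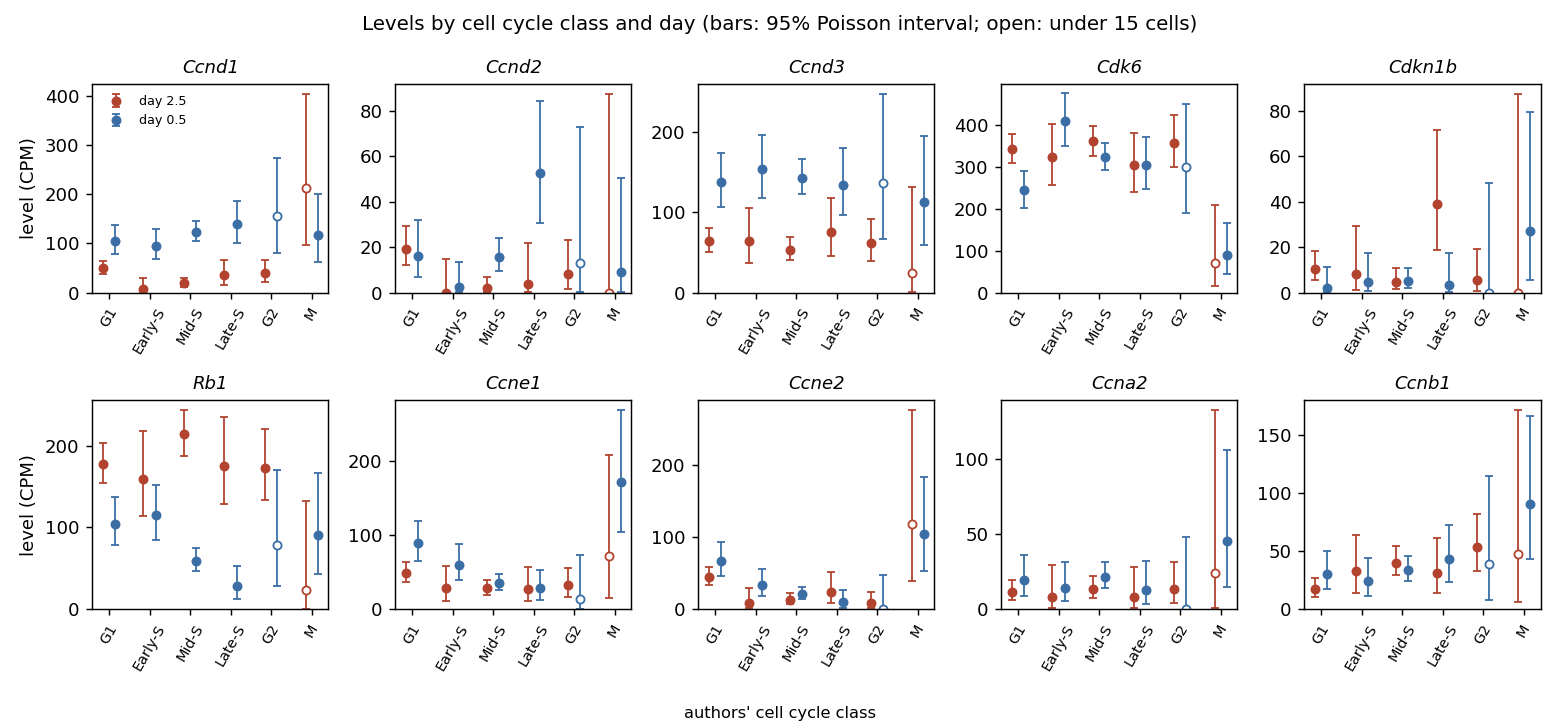
Level (CPM with exact Poisson intervals) of each gene by the authors' class from G1 to M at day 2.5 (red) and day 0.5 (blue), with open points for classes of under 15 cells. Ccnd1 has a trough in S phase at day 2.5, Rb1 is lower in mid and late S at day 0.5, and Ccne1 and Ccne2 are higher in G1 than in mid S on both days.

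Ccne1 and Ccne2 encode the cyclins E1 and E2, which activate CDK2 at the start of S phase. Ccne1 was at 34.4 CPM in batch 2 and 41.8 in batch 3 at day 2.5, against 52.7 in batch 1 and 53.5 in batch 2 at day 0.5. Ccne2 was at 28.2 CPM in batch 2 and 22 in batch 3 at day 2.5, against 36.2 in batch 1 and 30.2 in batch 2 at day 0.5. For each gene both day 2.5 batches were the lower ones, by less than the call threshold: the ratios were 0.709 (0.551 to 0.911) for Ccne1 and 0.772 (0.563 to 1.06) for Ccne2.

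Both E-type genes had more RNA in G1 than in mid S on both days. At day 2.5 Ccne1 was at 48.3 CPM in G1, 28.3 in early S and 27.9 in mid S, and at day 0.5 at 88.6 CPM in G1, 59.7 in early S and 35 in mid S. At day 2.5 Ccne2 was at 44.8 CPM in G1, 8.08 in early S and 13 in mid S, and at day 0.5 at 66.5 CPM in G1, 33.4 in early S and 21.1 in mid S. For Ccne1 the ratio of G1 to mid S was 1.73 (1.09 to 2.80) at day 2.5, against 2.53 (1.63 to 3.95) at day 0.5. For Ccne2 it was 3.44 (1.88 to 6.73) at day 2.5, against 3.14 (1.82 to 5.47) at day 0.5. G1 was above mid S for each gene in each batch of each day. Of the 10 genes, 4 passed a ratio of 1.5 in this direction at day 2.5 with at least 20 UMIs over the 2 classes (Ccnd1, Ccnd2, Ccne1 and Ccne2), and 18.8% of all genes did (30.9% passed in either direction). At day 0.5 these were Rb1, Ccne1 and Ccne2, and 16.6% of all genes (30.3% in either direction, 13.7% lower in G1).

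The share of G1 cells, where the E-type genes were higher, was larger at day 2.5, yet their totals were not. Within G1 the day ratio was 0.545 (0.360 to 0.830) for Ccne1 and 0.674 (0.427 to 1.08) for Ccne2. In mid S it was 0.798 (0.484 to 1.30) for Ccne1 and 0.616 (0.297 to 1.22) for Ccne2. With class shares held at those of day 0.5, the day ratio was 0.604 for Ccne1 and 0.749 for Ccne2. For Ccne1 the ratio passed the call threshold with those class shares, with the 6 classes weighted equally (0.593) or pooled to 4 (0.571), after thinning to 5000 UMIs (0.576), within batch 2 (0.643), as the mean of CPM per cell (0.631) and in letter B cells (0.401). For Ccne2 it passed the threshold for batch 3 against batch 1 (0.607) and with 4 pooled classes (0.580), and it was above 1 after thinning (1.22) and in letter B cells (1.31). In the M class Ccne1 was at 171.9 CPM at day 0.5 from 19 UMIs in 8 of 15 cells, and Ccne2 at 104.02 CPM from 11.5 UMIs in 6 cells, the highest of their classes that day. Ints8, which overlaps Ccne2 on the genome, had 628.5 UMIs, more than the 168.5 of Ccne2.

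**Figure D4:**
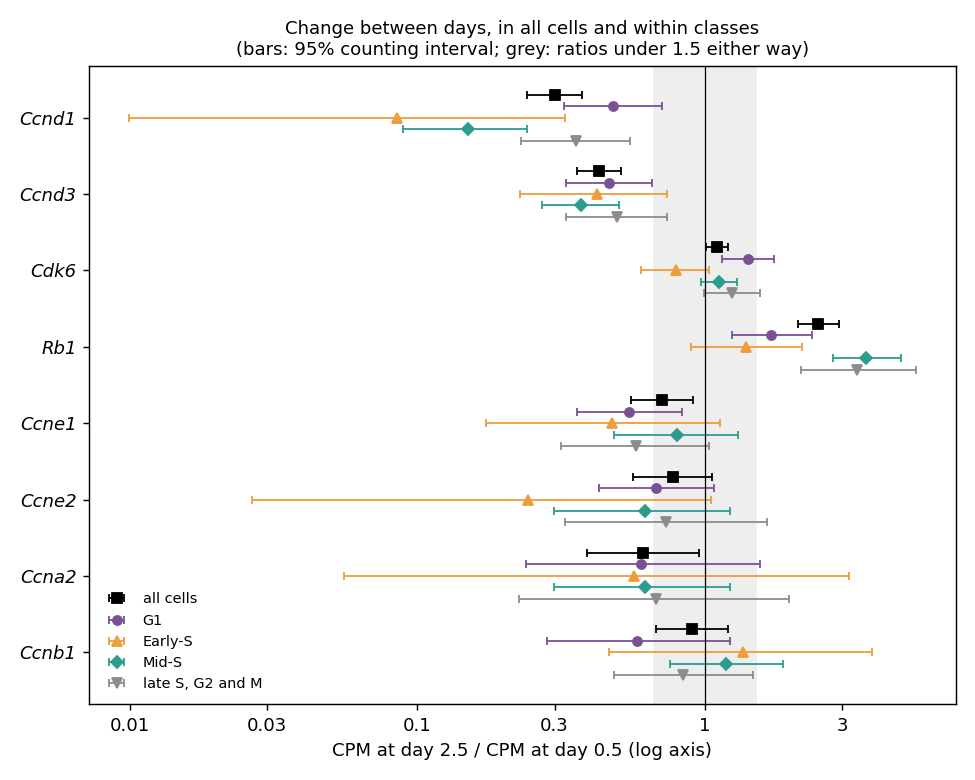
Ratio of CPM at day 2.5 to day 0.5 (log axis, with counting intervals) for 8 of the genes in all cells, G1, early S, mid S, and late S, G2 and M pooled. Ccnd3 stays between 0.372 and 0.495 in the classes, Ccnd1 is at 0.478 in G1 and 0.151 in mid S, and Rb1 is at 1.69 in G1 and 3.63 in mid S.

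Within G1 cells, 9 of the 10 genes had at least 20 UMIs over both days. Of these Rb1 was higher at day 2.5 and Ccnd1, Ccnd3, Ccne1, Ccna2 and Ccnb1 were lower, against 24.2% of all genes higher, 24% lower and 48.2% either. Within mid S cells, also with 9 genes measured, Rb1 was higher and Ccnd1, Ccnd2, Ccnd3, Ccne2 and Ccna2 were lower, against 22% of all genes higher, 24.9% lower and 46.9% either. Cdkn1b had too few UMIs in either class.

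Ccna2 encodes cyclin A2, which serves S phase and the approach to mitosis. It was at 11.8 CPM in batch 2 and 11.3 in batch 3 at day 2.5, against 18.9 in batch 1 and 19.1 in batch 2 at day 0.5. The batches of a day were close and the days did not overlap, on 37 UMIs at day 2.5 and 50.5 at day 0.5. The ratio was 0.611 (0.389 to 0.952) and it stayed below 1 under the alternatives, between 0.536 and 0.749. It missed the threshold after thinning (0.708), with the 6 classes weighted equally (0.690), with 5 CPM added to each level (0.692), in letter B cells (0.687) and in cells of the authors' chrX allele table (0.749). Within classes it was 0.597 in G1, 0.564 in early S, 0.616 in mid S and 0.673 in late S, G2 and M pooled, each with an interval that includes 1. The ratio of G1 to mid S was 0.877 (0.379 to 2.01) at day 2.5, against 0.905 (0.382 to 1.96) at day 0.5, where batch 1 was lower in G1 (9.48 against 20.6 CPM) and batch 2 higher (26.3 against 21.8 CPM). Exosc9, which overlaps Ccna2 on the genome, had more UMIs than Ccna2.

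Ccnb1 encodes cyclin B1, the activator of CDK1 at mitosis. It was at 27 CPM in batch 2 and 37.6 in batch 3 at day 2.5, against 31.3 in batch 1 and 38.5 in batch 2 at day 0.5. The days overlapped, and the ratio was 0.900 (0.673 to 1.21). It was above 1 in letter B cells (1.19), in cells of the chrX allele table (1.11) and for batch 3 against batch 1 (1.20), and 0.582 in G1 cells. At day 2.5 it was at 17.6 CPM in G1, 32.3 in early S, 40.0 in mid S, 31.2 in late S and 53.2 in G2. G1 was lowest and G2 highest of these 5 classes, with a ratio of G1 to mid S of 0.439 (0.245 to 0.763), lower in both batches. At day 0.5 that ratio was 0.895 (0.461 to 1.65), with batch 1 lower in G1 (19 against 36.8 CPM) and batch 2 higher (38.5 against 30.0 CPM). Ccnb1 alone of the 10 passed the inverse of 1.5 for G1 against mid S at day 2.5, as 12.1% of all genes did. Its promoter window is the one with 2 CCAAT boxes and 3 GC boxes.

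Per kilobase of gene, levels at day 2.5 were highest for Ccnb1 (4.09 CPM per kilobase), Ccne1 (3.96) and Ccnd1 (3.58), whose counting intervals in CPM make neighbours in this order indistinct. At day 0.5 Ccnd1 led with 11.9 CPM per kilobase, ahead of Ccne1 with 5.58 and Ccnb1 with 4.54. Ccnd2 was lowest at day 2.5 with 0.383 and Rb1 lowest at day 0.5 with 0.559 CPM per kilobase. Gene length was taken from start to end with introns, as most UMIs lay outside exons.

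Over the 10 groups of day and class with at least 15 cells, the members fell into a few patterns of log2(CPM + 5). Ccne1 and Ccne2 ran together (Pearson's r 0.91), as did Ccnd1 and Ccnd3 (0.85) and Ccne1 and Ccna2 (0.84). Rb1 ran against Ccnd3 (-0.76) and Ccnd1 (-0.74), and Cdk6 against Ccna2 (-0.81) and Ccne1 (-0.80). Among 5530 genes with at least 200 UMIs, those most like Ccnd1 were Cdca7 and Tet2 (each 0.97), and those most like Ccnd3 were Zfp57 and Fubp3 (each 0.99). Pnpla6 and Rbfox2 were most like Cdk6 (each 0.98), Amotl1 (0.96) and Lmln (0.95) most like Rb1, and Cpsf2 (0.90) and Taf5l (0.89) most like Ccnb1. Ccne1 was most like the histone variant gene H2afz and Zfp367 (each 0.97), and Ccne2 most like Orc6 (0.98), a subunit of the origin recognition complex, and H2afz (0.92). These are descriptions over 10 groups that share libraries, depth and the M class of day 0.5, which had few UMIs. In that class Cdk6 was at 90.5 CPM from 10 UMIs, against 244 to 409 CPM in the other groups. Groups of both days enter, so a change between the days is part of each correlation.

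Other genes of the same machinery were read by the same rule. Of such genes with at least 20 UMIs that are not among the 10, 11 were higher, 29 lower and 83 neither at day 2.5, with a median log2 change of -0.10. Lower genes made up 23.6% of them, near the 25.6% of all genes, and higher genes 8.94%, against 21.4% of all genes. The plot of these lists shows each gene.

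**Figure D5:**
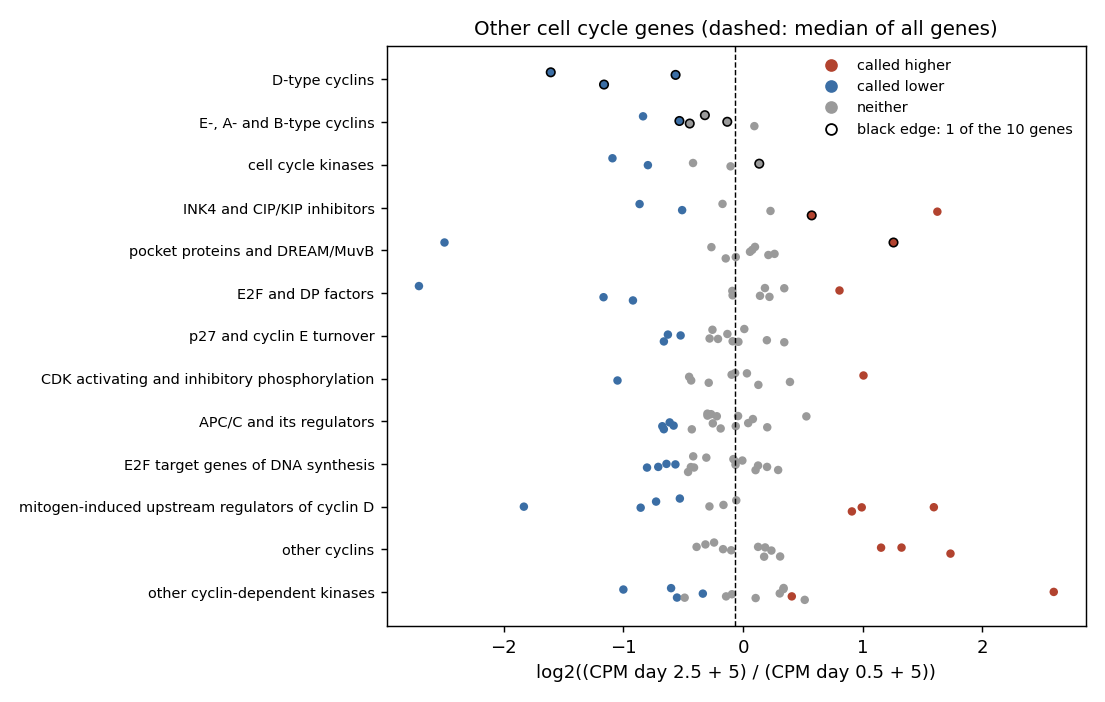
Change between the days, log2((CPM day 2.5 + 5)/(CPM day 0.5 + 5)), of each gene with at least 20 UMIs in 13 lists, coloured by call, with the 10 genes edged in black and a dashed line at the median of all genes, -0.06. The D-type cyclins lie left of it, as do Mybl2 and E2f2, while Cdkn1a, Ccng1 and Cdk14 lie far to the right.

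Among the kinases, Cdk1, which drives mitosis with cyclin B, was at 18.2 CPM at day 2.5 and 44.4 CPM at day 0.5 (ratio 0.410, 0.294 to 0.566). Cdk4, the other partner of the D-type cyclins, was at 13.2 CPM at day 2.5 and 26.5 CPM at day 0.5 (0.497, 0.331 to 0.738). Cdk2 and Cdk7 were neither, at ratios of 0.681 and 0.929. Of the remaining E-, A- and B-type cyclins Ccnb2 was lower (0.462) and Ccnf neither (1.07).

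Of 6 measured genes in the list of INK4 and CIP/KIP inhibitors, 2 were higher and 2 lower, and 2 were neither. Among all genes 21.4% were higher and 25.6% lower. Cdkn1a, which encodes p21, was at 104.99 CPM at day 2.5 and 30.7 CPM at day 0.5, a ratio of 3.42 (2.68 to 4.41) from 334.5 UMIs at day 2.5 and 81.5 at day 0.5. The lower ones were Cdkn2a (0.538, 0.265 to 1.06) and Cdkn3 (0.250, 0.0822 to 0.646). Cdkn3 was in the list by name, but it encodes a phosphatase and belongs to neither family. Of 12 genes of p27 and cyclin E turnover, 3 were lower, near the 25.6% of all genes, and none higher, against 21.4% of all genes. Skp2, which targets p27 for degradation, was at 98.9 CPM at day 2.5 and 159.3 CPM at day 0.5 (0.621, 0.535 to 0.720), and Rbx1 and Rnf123 had ratios of 0.617 and 0.580.

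Of 10 pocket protein and DREAM or MuvB genes, Rb1 was higher and Mybl2 lower, against 21.4% of all genes higher and 25.6% lower. Mybl2, which encodes the B-Myb activator, was at 77.2 CPM at day 2.5 and 459 CPM at day 0.5 (0.168, 0.146 to 0.193). Among 10 E2F and DP genes, E2f2 was at 16.2 CPM at day 2.5 and 133.3 CPM at day 0.5 (0.121, 0.0887 to 0.163), and E2f8 (0.379) and E2f4 (0.417) were lower too. E2f7 was higher, at 74.4 CPM at day 2.5 and 40.7 CPM at day 0.5 (1.83, 1.45 to 2.32). E2f3, which had the most UMIs of the list, was neither (1.10). Of the 10 E2F and DP genes 1 was higher and 3 were lower, against the same shares of all genes. Of 17 E2F target genes of DNA synthesis, 4 were lower and none higher, against 25.6% of all genes lower and 21.4% higher. These were Pola1 (0.573), Rrm2 (0.627), Dnmt1 (0.661) and Uhrf1 (0.594), while Pole (0.945) and Orc1 (0.957) were neither.

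Of 10 measured upstream regulators of cyclin D, 3 were higher and 4 lower, against 21.4% of all genes higher and 25.6% lower. A further 9 had under 20 UMIs. Etv4, an ETS factor induced by MEK and ERK signalling, was at 41.4 CPM at day 2.5 and 160 CPM at day 0.5 (0.259, 0.211 to 0.315). Etv5, a related ETS factor with more UMIs, was neither, at 329 CPM at day 2.5 and 342 CPM at day 0.5 (0.961, 0.879 to 1.05). Foxo3 (2.01), Pim2 (3.09) and Gsk3b, the kinase that marks cyclin D1 for export and degradation (1.90, 1.71 to 2.13), were higher. Among 10 genes that set the phosphorylation of cyclin-dependent kinases, Cdc25b was higher (2.89) and Pkmyt1 lower (0.289), against 21.4% of all genes higher and 25.6% lower. Of 17 APC/C genes 4 were lower, near the 25.6% of all genes, and none higher, against 21.4% of all genes. The lower ones had ratios from 0.549 for Fzr1 to 0.628 for Cdc20.

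Of 13 measured other cyclins 3 were higher and none lower, against 21.4% of all genes higher and 25.6% lower. Ccng1, a p53 target, was at 75.5 CPM at day 2.5 and 19.2 CPM at day 0.5 (3.93, 2.90 to 5.43). Ccnjl had a ratio of 2.45, and Ccng2 one of 5.36 from 7 UMIs at day 0.5. Of 14 other cyclin-dependent kinases 2 were higher and 4 lower, against the same 21.4% and 25.6% of all genes. Cdk14 was at 311 CPM at day 2.5 and 47.3 CPM at day 0.5 (6.58, 5.46 to 7.99).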

How the data were processed

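Expected counts of UMIs, with a row per gene and a column per cell, were deposited, and some values are fractions. The deposited cell tables hold counts of UMIs and contacts, the fraction of contacts between chromosomes, S and G2M scores and cell cycle classes made by the authors. Per the submitters' processing notes, reads were set on GRCm38. Aligner, counter, use of strand, filters on cells, treatment of doublets and class method: not given in the sources used here. The 406 cells of the 236 libraries were matched by name through the titles, and 1101 further columns were not used.

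UMIs were summed per day, class and batch and given as CPM, UMIs per 1000000 UMIs of the same cells. Levels have exact Poisson intervals, ratios exact conditional (binomial) intervals, shares Clopper-Pearson and their differences Newcombe intervals, at 95%. UMIs that came from amplified reads are treated as independent. A log2 change uses a pseudocount of 5 CPM and understates changes of low genes. Thinning drew 5000 UMIs per cell, after fractions were rounded at random. Classes of under 15 cells in a day are given but not compared on their own. The calls and intervals were tested on counts simulated from a Poisson distribution. Those counts hold no spread between cells, batches or amplified reads, so the test cannot show how the intervals cover such spread. Python 3.11.15, NumPy 2.4.6, pandas 2.3.3, SciPy 1.17.1 and matplotlib 3.10.9 were used.

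The text names all 10 genes. From each of 13 lists it may name up to 4 called genes and 2 others with the most UMIs, and, for members with at least 100 UMIs, the 2 most correlated genes. The members and lists were chosen with earlier results of these data known. Alternatives covered scaling, pseudocount, thinning, cells, class weights, thresholds and minimum UMIs.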

Additional observations from a re-analysis of the deposited data

Results flagged for a closer look

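Rb1 was lower in G1 than in mid S in each batch of day 2.5 and higher in each batch of day 0.5. Its ratio of G1 to mid S was 0.829 at day 2.5, with an interval that includes 1 (0.683 to 1.01), with 182.1 against 190 CPM in batch 2 and 172.6 against 257 CPM in batch 3. At day 0.5 it was 1.78 (1.22 to 2.57), with 123.3 against 48.5 CPM in batch 1 and 91 against 71.9 CPM in batch 2. Cdkn1b ran the other way, with a ratio of 2.27 at day 2.5 and 0.413 at day 0.5, and again each batch of a day had the same direction. The Cdkn1b values rest on 12 UMIs in G1 and 5 in mid S at day 2.5, and on 1 and 6 UMIs at day 0.5, and their intervals include 1 on both days (0.743 to 8.21 at day 2.5, 0.00897 to 3.40 at day 0.5). The difference between the days was not tested for either gene.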

How the results depend on the processing

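For the change between days of the 10 genes, 18 values under an alternative moved beyond the counting interval, and the direction of a called gene turned 3 times. All 3 were for Ccnd2: 1.18 after thinning to 5000 UMIs, 1.20 in G1 cells only, and 1.03 for batch 3 day 2.5 cells against batch 1 day 0.5 cells. In G1 cells only, ratios moved to 0.478 for Ccnd1, 1.41 for Cdk6, 5.24 for Cdkn1b (from 1 UMI at day 0.5), 1.69 for Rb1, 0.545 for Ccne1 and 0.582 for Ccnb1. With classes weighted equally they were 0.496 for Ccnd1, 0.305 for Ccnd2 and 1.94 for Rb1, and with day 0.5 class shares 0.323 for Ccnd2. Letter B cells, a part of batch 2 marked in the cell names, gave 0.145 for Ccnd1, 0.0858 for Ccnd2, 1.51 for Cdk6, 0.401 for Ccne1 and 1.31 for Ccne2. Cdk6 was at 1.0023 for batch 3 against batch 1, Ccne2 at 1.22 after thinning, Ccnb1, which was not called, above 1 in letter B cells (1.19), in cells of the chrX allele table (1.11) and for batch 3 against batch 1 (1.20), and Rb1 at 2.01 in cells of the chrX allele table. Within batch 2 the ratio was 0.380 for Ccnd2 and 1.38 for Cdkn1b. The cause of these shifts was not tested. A ratio of 2 left 1 of the genes higher and 2 lower, and a minimum of 100 UMIs 1 higher and 2 lower, against 2 higher and 4 lower as reported. Of the other list genes, 20 were higher with no minimum of UMIs (11 as reported), and 13 were lower at a ratio of 2 and 18 at a minimum of 100 UMIs (29 as reported). The difference in G1 share was 17.9 points within batch 2 and 21.6 with G0 counted as G1. Median-ratio scaling shifted ratios by 0.04 on the log2 scale and turned no direction of the 10 genes. Of levels by class, 267 moved by less than their intervals and 53 further. Not run were the G1 share over all cells of the metadata and another class column, since classes were given for the cells of the expression table in 1 column. The alternatives that compare batches 3 and 1, leave out the top cell, pool classes in 4 or G0 with G1, use 5 CPM on the ratio, or leave out the M class from counts were chosen after seeing the data. No paired analysis was possible because each day is 1 sample and cells carry no pairing. Counts limit Ccnd2, Cdkn1b and Ccna2 most. Among the classes, 3 counts equal 58.2 CPM in G0 and 71.2 in M at day 2.5, and 39.1 in G2 and 27.1 in M at day 0.5.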
